A study of Mus musculus with 76 samples.

Results

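The genes described here are 7 classical immediate early genes, Fos, Jun, Junb, Egr1, Atf3, Dusp1 and Ier2, taken by name, all of which had a row among the 15192 genes of a single-cell RNA table. The table held 76 single mouse cells called iHPCs, blood progenitors that the labels describe as obtained from pluripotent stem cells with inducible Runx1, Hoxa9 and Hoxa10, and every cell belonged to this 1 group. All cells thus shared the 3 introduced factors and no group without them was measured. The labels name no culture, clone or sort for any cell and do not say whether the factors were still induced at the sort, so they stand as 1 sample, and cells were not used as replicates in any test. Values are TPM, a share of a cell's transcripts after scaling for gene length and to the same total in every cell. A gene was called on in a cell at 1 TPM or at 10 TPM, and both counts are given.

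Immediate early genes are genes that a cell transcribes within minutes of a stimulus, from factors already present and without new protein synthesis. Growth factor and stress signals pass through the Ras, Raf and MEK proteins and through p38 and JNK to the serum response factor with its ELK partners and to CREB, which act at these promoters. Their RNAs are short-lived, and sorting or dissociating cells is known to induce many of them. Fos, Jun and Junb encode subunits of the dimeric factor AP-1, Egr1 a zinc finger factor, Atf3 a stress-induced bZIP factor, Dusp1 a phosphatase that switches off MAP kinases, and Ier2 a small nuclear protein of the Ier family.

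The promoter sequences below differ in the short elements searched for. They come from RefSeq on build GRCm38.p6, where 5 of the 7 genes were used, namely Fos, Jun, Junb, Atf3 and Dusp1. Ier2 was not among them, and Egr1 was not used. The 250 bases before the start are printed 5′ to 3′ for Fos (chr12:85473640-85473889, plus strand), Dusp1 (chr17:26508473-26508722, minus strand) and Junb (chr8:84978749-84978998, minus strand). Fos is shown for its low level in nearly every cell, and Dusp1 and Junb as genes with a low and a high band of values, of which Dusp1 had the most matches and Junb had 0. Capitals mark the CREB core TGACGT, searched on both strands, and the TATA box TATAAA, searched on the sense strand.
Fos: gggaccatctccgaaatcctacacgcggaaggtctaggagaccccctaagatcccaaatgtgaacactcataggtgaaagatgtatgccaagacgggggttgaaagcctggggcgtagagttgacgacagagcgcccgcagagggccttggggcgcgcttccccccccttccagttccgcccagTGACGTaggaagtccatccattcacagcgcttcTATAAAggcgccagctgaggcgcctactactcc
Dusp1: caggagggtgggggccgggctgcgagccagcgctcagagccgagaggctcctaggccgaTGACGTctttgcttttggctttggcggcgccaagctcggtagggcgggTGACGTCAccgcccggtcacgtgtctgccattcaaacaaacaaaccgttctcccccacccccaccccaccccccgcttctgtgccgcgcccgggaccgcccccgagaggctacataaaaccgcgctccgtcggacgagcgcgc
Junb: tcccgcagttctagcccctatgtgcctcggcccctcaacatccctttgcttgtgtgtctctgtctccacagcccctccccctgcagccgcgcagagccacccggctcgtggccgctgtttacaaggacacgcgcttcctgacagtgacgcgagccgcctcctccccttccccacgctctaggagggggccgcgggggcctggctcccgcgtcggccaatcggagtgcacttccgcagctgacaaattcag
The core TGACGT had 1 match in Fos, 66 to 61 bases before the start, and 1 in Atf3, on the opposite strand. Dusp1 had 3 matches, of which 2 overlap on opposite strands in the palindrome TGACGTCA. Jun and Junb had 0. The core was present in 6.47% of the 32851 promoter windows of this length, and TATAAA, found in Fos alone of the 5, in 7.59%. The AP-1 site TGANTCA, searched on both strands, had 0 matches in the 5 windows and was in 6.75% of all. A match is a description of letters, and no protein binding was measured.

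The table as a whole sets the limits of these values. Cells had 2465 to 5992 genes at 1 TPM or more, with 4182.5 as the median, and depth is unknown because TPM does not keep it. All 10 pan-haematopoietic markers, among them Ptprc and Coro1a, were on at 1 TPM in 66 cells or more, with summed levels of 5483 to 16359 TPM. Pou5f1 and Lin28a (pluripotency), Col1a1 and Col1a2 (stroma), and Kdr and Tek (endothelium) were listed at 0 in every cell. Pdgfrb, Pecam1 and Plvap were on in 22, 24 and 18 cells; summed levels reached 49.2, 167 and 430.1 TPM for the 3 listed pluripotent, 4 stromal and 5 endothelial markers, and their part in the results was not tested. A value of 0 can be a failed capture, since Polr2a and Tbp, which every cell uses, were at 0 in 43 and 29 cells. Intervals below are exact Clopper-Pearson 95% intervals and cover the counting of cells only.

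Ier2 was on in nearly every cell, whereas Fos was hardly found above trace level. At 1 TPM, Ier2 was on in 73 of 76 cells (96.1%, interval 88.9 to 99.2%) and Fos in 32 (42.1%, 30.9 to 54%). At 10 TPM, Ier2 was on in 71 cells (93.4%, 85.3 to 97.8%) and Fos in 1 (1.32%, 0.0333 to 7.11%). Ier2 was higher than Fos in 72 of 76 cells, lower in 3, and both were 0 in 1. The remaining 5 genes lay between or below, with Junb on in 59 cells at 1 TPM and 43 at 10 TPM, Dusp1 in 31 and 19, Jun in 10 and 8, Atf3 in 2 and 2 and Egr1 in 0 and 0.

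**Figure D1:**
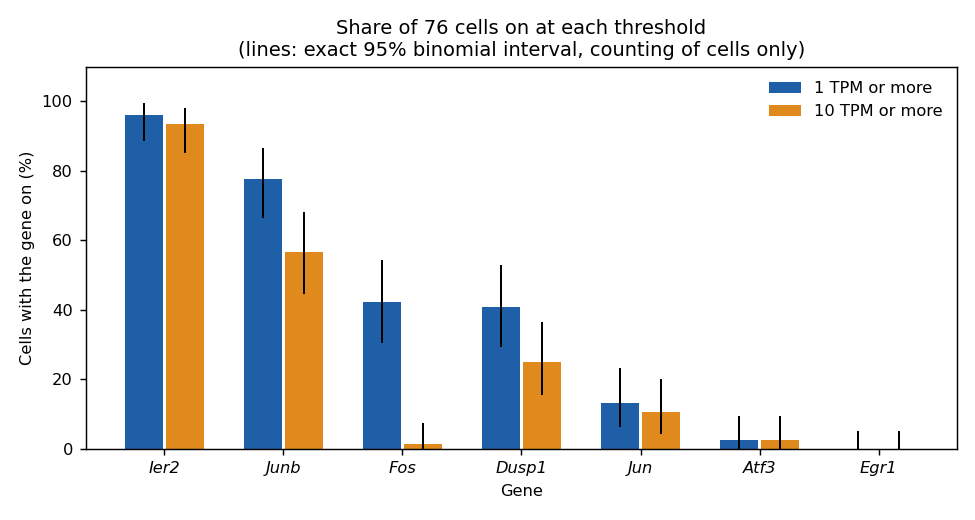
Share of the 76 cells (vertical axis, percent) in which each of the 7 genes (horizontal axis, ordered by median TPM) was on at 1 TPM (blue) or 10 TPM (orange); lines are exact 95% binomial intervals that cover the counting of cells only. The orange bar is close to the blue one for Ier2 (93.4% against 96.1%) and far below it for Fos (1.32% against 42.1%).

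Ier2 (gene ENSMUSG00000053560.4) lies on chromosome 8, 84661331 to 84662852, minus strand, GRCm38, with 1 annotated transcript of 1 exon and no overlapping gene. Its level ran from 0 over a median of 241 TPM (interquartile range 119 to 399 TPM) to 1203 TPM, with 60 cells at 100 TPM or more. Between cells at 10 TPM or more the lowest value was 17.7 TPM, and the next cell below that stood at 2.61 TPM. Of all listed genes, 94.8% had a lower median than Ier2, though 76.8% had a lower median than Fos as well. Ier2 itself was a gene of high level in most cells. Its coefficient of variation over cells was 80.2%, the smallest of the 7 genes, which otherwise ran from 139.9% for Junb to 614% for Atf3.

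Only 5 cells had Ier2 under 10 TPM. Named by the letter and number of their titles, they were B8 (0 TPM), D5 (0.273 TPM), D11 (0.850 TPM), F11 (1.92 TPM) and H6 (2.61 TPM). These cells had 4177, 3958, 3750, 3510 and 3061 genes at 1 TPM in the same order, all below the median of 4182.5. Across all 76 cells, however, the level of Ier2 had a Spearman correlation (rho) of -0.01 with the number of genes on. In 2 of the 5 cells, F11 and H6, Dusp1 stood at 246 and 220.1 TPM, and in D5 Junb stood at 96.3 TPM, so another immediate early gene was captured there.

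Fos (ENSMUSG00000021250.13), the AP-1 subunit most often used as a sign of recent stimulation, lies on chromosome 12, 85473890 to 85477273, plus strand, and its transcripts have 3 to 4 exons. Its level ran from 0 over a median of 0.874 TPM (interquartile range 0.287 to 1.72 TPM) to 53.7 TPM. It was at 0 in 18 cells, above 0 but under 1 TPM in 26, from 1 to under 10 TPM in 31 and above that in 1. The second highest cell had 7.78 TPM. Fos reached 5 TPM in 3 cells, so most of the 32 cells called on at 1 TPM lay from 1 to under 5 TPM.

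Few genes were so widely found and so rarely above 10 TPM. Of the 5809 genes on at 1 TPM in at least 20 cells, the median gene kept 91.7% of its cells at 10 TPM. Fos kept 3.12% of its cells, and 24 of the 5809 genes, Fos included (0.413%), kept no more. Ier2 kept 97.3%, Junb 72.9% and Dusp1 61.3%. Fos and Ier2 were chosen with earlier results of these data known. The rank of Fos uses the same counts at 1 and 10 TPM as above, so it is a description only.

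The single cell with Fos at 10 TPM or more, titled A11, was looked at after its value was seen. It also had Ier2 at 575 TPM and Dusp1 at 210.3 TPM, with Junb at 5.34 TPM and Jun, Egr1 and Atf3 at 0. Cells sharing its title letter or number were set beside the rest. Fos was on at 1 TPM in 3 of 8 cells sharing the letter A (37.5%, 8.52 to 75.5%), 4 of 6 sharing the number 11 (66.7%, 22.3 to 95.7%) and 24 of 61 others (39.3%, 27.1 to 52.7%). The intervals of the 3 sets overlap, and the part of this cell in the low Fos values was not tested.

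**Figure D2:**
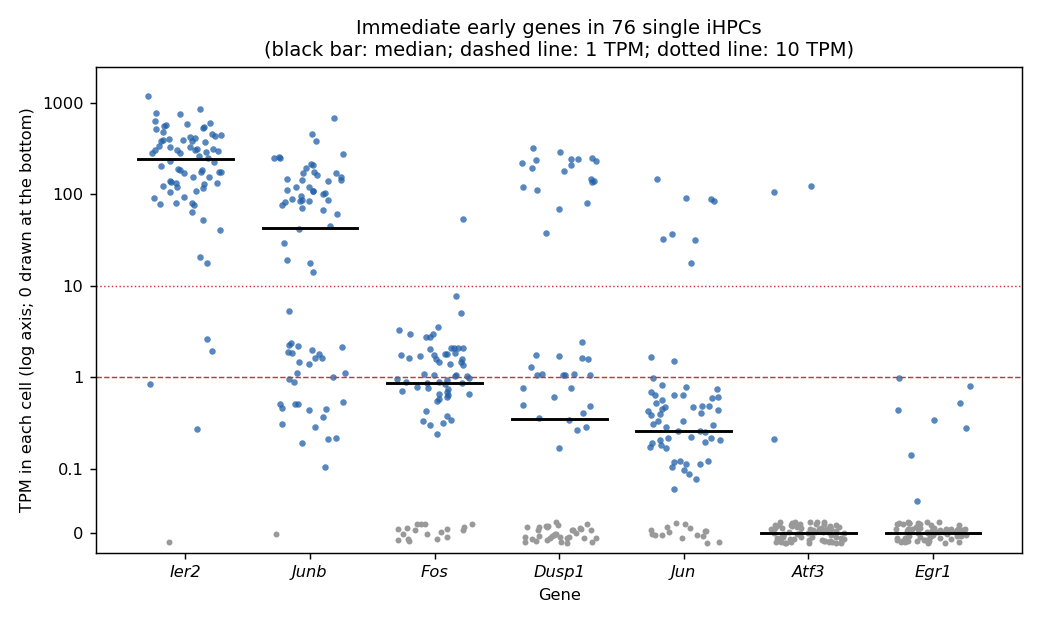
TPM of each gene in each of the 76 cells (blue points; log vertical axis, with values of 0 in grey at the bottom) for the 7 genes, with black bars at the medians and lines at 1 and 10 TPM. Ier2 forms 1 cloud at high level with 5 cells below 10 TPM, Junb, Dusp1 and Jun split into a low and a high band, and Fos has a low band with 1 cell above it.

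Junb, Dusp1 and Jun had values in a low and a high band with few cells between. Of all values above 0 in the table, 17.7% were under 1 TPM and 10.3% from 1 to under 10 TPM. The other 72% were at 10 TPM or more. From 1 to under 10 TPM lay 16 of the 75 values above 0 for Junb, 12 of 42 for Dusp1 and 2 of 60 for Jun. The gaps of these genes span other ranges than this, so whether such a gap is particular to them was not tested. Junb (chromosome 8, 84974484 to 84978718, overlapping Prdx2), an AP-1 subunit that often opposes Jun, ran from 0 over a median of 43.4 TPM (interquartile range 1.11 to 127 TPM) to 687 TPM. Its 43 cells at 10 TPM or more had a median of 112 TPM and began at 14.3 TPM, and 5.34 TPM was the next value below. Dusp1 (chromosome 17, 26505590 to 26562128) ran from 0 over a median of 0.348 TPM to 324 TPM. Its 19 high cells had a median of 196 TPM and began at 37.9 TPM, against 2.46 TPM for the next cell below, a 15.4-fold gap. Dusp1 overlaps Ergic1 in the annotation, and whether the counting used strand is not given in the sources used here, so reads of overlapping genes may be exchanged for Junb and Dusp1.

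Jun (chromosome 4, 95049034 to 95052222, 1 exon, overlapping the antisense gene Junos), the other AP-1 partner of Fos, ran from 0 over a median of 0.258 TPM to 148 TPM. It was above 0 in 60 cells, but in 50 of these it was under 1 TPM. Its 8 high cells began at 17.6 TPM and had a median of 61 TPM, and the next value below was 1.67 TPM. Jun was thus strongly expressed in a few cells and at trace level in most.

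Egr1 and Atf3 were on in 2 cells at most. Egr1 (chromosome 18) was at 0 in 68 cells and highest at 0.978 TPM. With 0 of 76 cells on, the upper limit of its share was 3.95% by 3 counts and 4.74% by Clopper-Pearson. Atf3 (chromosome 1, 191170296 to 191218039) was at 124 and 105 TPM in 2 cells, at 0.212 TPM in 1 and at 0 in 73.

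In order of median level the genes stood as Ier2, Junb, Fos, Dusp1, Jun, and then Atf3 and Egr1 at 0. The interquartile ranges of neighbours from Ier2 down to Jun overlapped, for Ier2 with Junb between 119 and 127 TPM. These ranges alone, which ignore that the genes were measured in the same cells, did not separate the neighbours. The range of Jun, 0.0940 to 0.598 TPM, lay above those of Atf3 and Egr1, which were 0 throughout. Within cells, Ier2 was higher than Junb in 68 of 76, Junb higher than Fos in 61, Fos higher than Dusp1 in 40 and lower in 28, and Dusp1 higher than Jun in 36 and lower in 31. The order among Fos, Dusp1 and Jun therefore varied from cell to cell.

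Cells seldom had many of these genes on together. At 1 TPM a median of 3 of the 7 genes was on per cell, with 0 in 1 cell, 1 in 4, 2 in 27, 3 in 29, 4 in 13 and 5 in 2. At 10 TPM the median was 2, and 22 cells had 1 gene on, 35 had 2, 16 had 3 and 1 had 4. Ier2 was on without Fos in 42 cells at 1 TPM (55.3%, 43.4 to 66.7%), where independent shares would give 42.3, and in 70 cells at 10 TPM (92.1%, 83.6 to 97.0%), where they would give 70.1. At 1 TPM, Fos was on without Ier2 in 1 cell and both in 31 against 30.7 from independent shares. With the numbers of cells on for each gene fixed, Ier2 without Fos could be found in 41 to 44 cells at 1 TPM and 70 to 71 at 10 TPM, so these counts say little about whether the genes were on independently.

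Other pairs lay on both sides of the count from independent shares. At 10 TPM, Ier2 and Junb were on together in 42 cells against 40.2 from independent shares, Junb and Jun in 6 against 4.53, Dusp1 and Junb in 10 against 10.8, Dusp1 and Ier2 in 17 against 17.8, and Dusp1 and Jun in 1 against 2. At 1 TPM, Dusp1 and Fos were on together in 17 cells against 13.1.

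**Figure D3:**
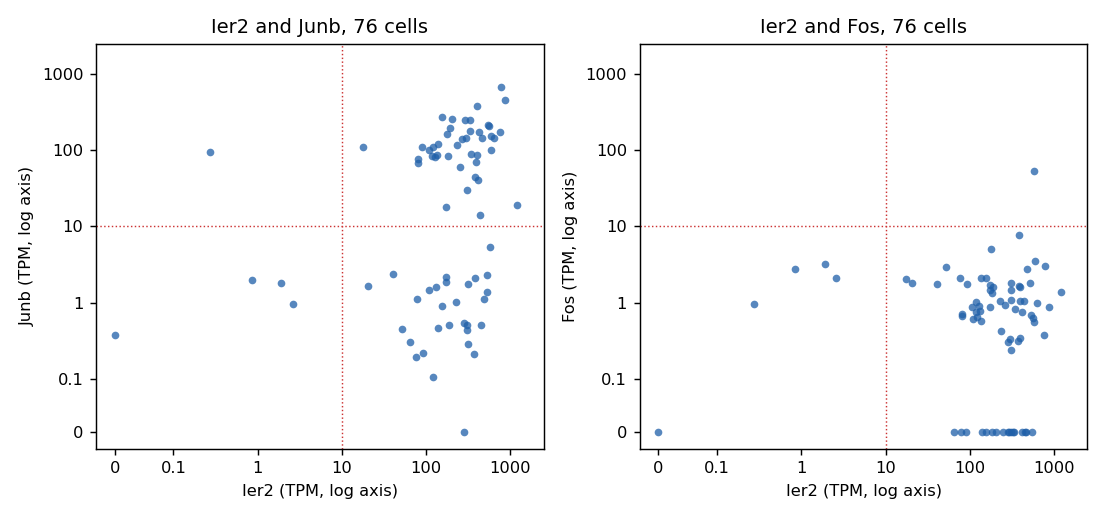
Ier2 (horizontal log axis, TPM) against Junb (left) and Fos (right; vertical log axes, TPM) in the 76 cells, 1 point per cell, with 0 drawn at the lower ends and dotted lines at 10 TPM. In the left panel 42 cells lie above both lines, and in the right panel 70 cells lie to the right of the line for Ier2 but below that for Fos.

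Level followed level only weakly among these genes. Across the 76 cells the rho of Ier2 was 0.35 with Junb, 0.17 with Jun, -0.08 with Fos, -0.03 with Dusp1 and -0.04 with Atf3. All cells come from 1 table in which each column is scaled to the same total, and in values as sparse as these a weak correlation is a description only. When the 2 cells with the most extreme Ier2 were left out, rho with Junb was 0.33. Within the 43 cells with Junb at 10 TPM or more it was 0.26, and within the 33 others 0.09. The correlation was thus lower within each band of Junb than over all cells. Fos had a rho of 0.13 with Dusp1, 0.07 with Jun and -0.10 with Junb.

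Position in the titles, which have the form of plate wells although the labels do not say so, went with some values. Ier2 had a median of 183 TPM in the 37 cells with title numbers 2 to 6 and 312 TPM in the 39 with numbers 7 to 11. It was on at 10 TPM in 94.6% and 92.3% of them. Fos was on at 1 TPM in 35.1% and 48.7%. The 15 cells with numbers 10 and 11 had a median of 3750 genes at 1 TPM against 4281 in the other 61, and Dusp1 reached 10 TPM in 7 of these 15 (46.7%) and in 12 of the 61 (19.7%). The part of title position in these values was not tested.

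**Figure D4:**
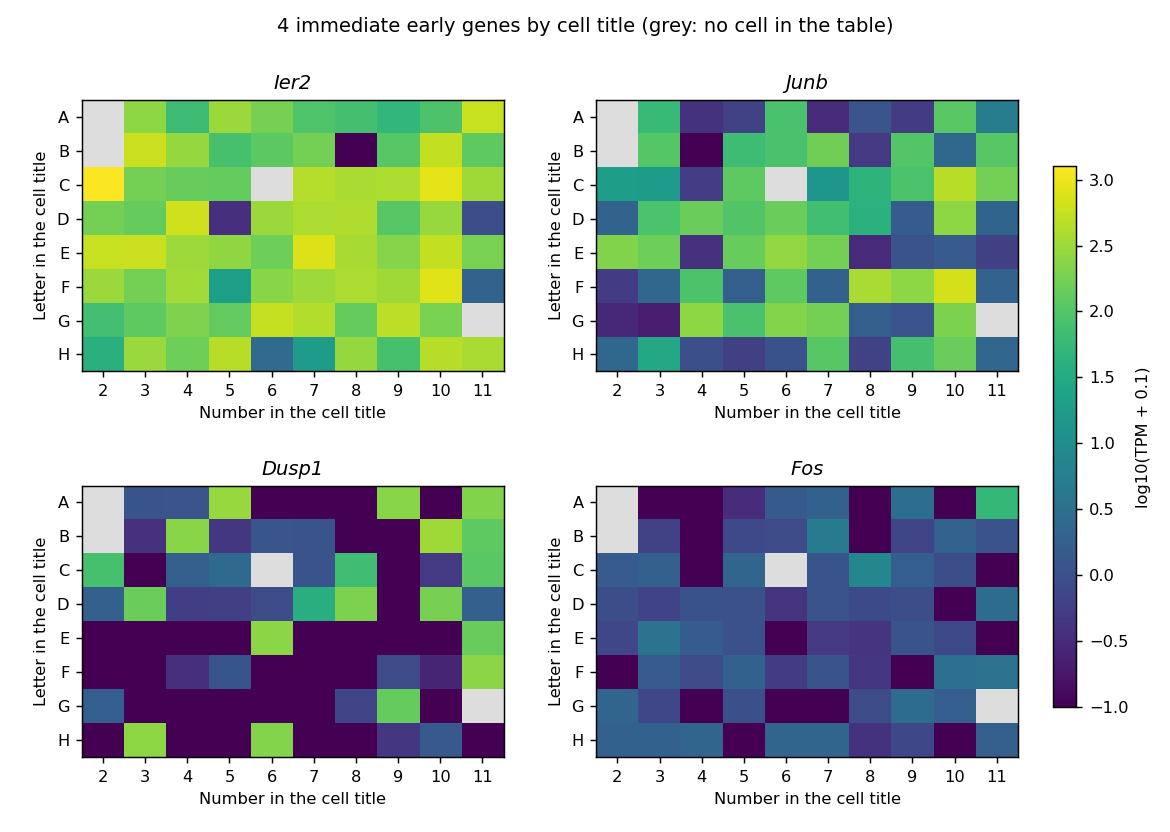
log10(TPM + 0.1) of Ier2, Junb, Dusp1 and Fos (colour) in each cell, placed by the letter (rows) and number (columns) of its title, with grey where the table has no cell. Ier2 is high almost throughout, Junb and Dusp1 are high in scattered cells with Dusp1 in 7 of the 15 cells numbered 10 and 11, and Fos is low almost throughout.

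The 7 genes were set among 73 genes of 5 immediate early lists, of which 70 had a row. At 1 TPM, 19 of the 70 (27.1%) were on in at least 50% of cells, against 23.1% of all 15192 genes. At 10 TPM, 16 of 70 (22.9%) were, against 19.8% of all genes. The median list gene was on in 14 cells at 1 TPM and the median of all genes in 11. These shares lie near those of all genes, so the lists as a whole did not stand out. A median of 20.5 list genes was on per cell (range 11 to 30). By cells on at 1 TPM, Ier2 was the second of the 70 after Myc and Fos the twentieth.

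**Figure D5:**
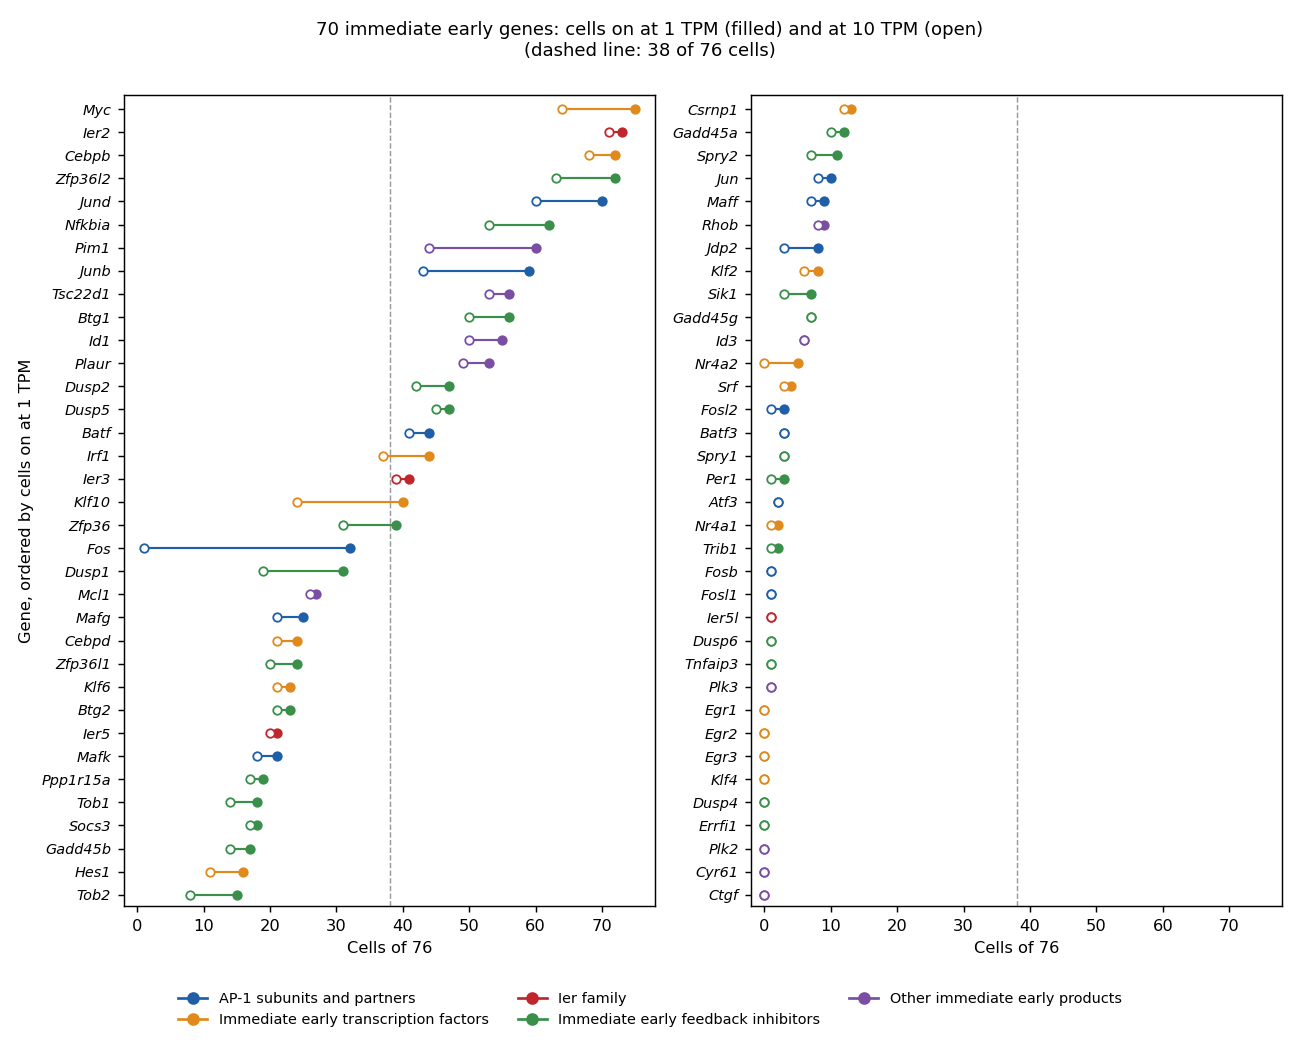
Number of cells of 76 (horizontal axes) in which each of 70 immediate early genes (rows, ordered from the top left; colours give the list) was on at 1 TPM (filled) and at 10 TPM (open), with a dashed line at 38 cells. Myc and Ier2 stand at the top with 75 and 73 cells, and the line joining the 2 counts of Fos, 32 and 1, is the longest.

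Of the 14 listed AP-1 subunits and partners, 3 were on in at least 50% of cells. This was 21.4% at 1 TPM, against 23.1% of all genes. Jund, the AP-1 subunit least dependent on stimulation, was on in 70 cells (60 at 10 TPM; median 45 TPM, highest 258 TPM), and Batf, an AP-1 partner that acts in lymphoid and dendritic cells, in 44 (41 at 10 TPM; median 64.3 TPM, highest 973 TPM). Junb was the third. The other Fos family genes were on in few cells, with Fosl2 on in 3 cells and Fosb and Fosl1 in 1 each. Small Maf genes, whose products pair with other bZIP proteins, were on in 25 (Mafg), 21 (Mafk) and 9 (Maff) cells. Jdp2, a repressor of AP-1, was on in 8 cells and Batf3 in 3.

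Of the 16 listed transcription factors of the immediate early response, 4 were on in at least 50% of cells. That is 25% at 1 TPM, against 23.1% of all genes. Myc, the growth regulator, was on in 75 cells (64 at 10 TPM; median 348 TPM, interquartile range 158 to 657 TPM), and Cebpb, a myeloid bZIP factor, in 72 (68 at 10 TPM; median 228 TPM). Irf1, an interferon response factor, was on in 44 cells, and Klf10 in 40, of which 24 held at 10 TPM. Cebpd was on in 24 cells, Klf6 in 23, Hes1, a Notch target, in 16, Csrnp1 in 13 and Klf2 in 8. Nr4a2 was on in 5 cells and in 0 at 10 TPM, Srf in 4, and Nr4a1, a marker of antigen receptor signalling in lymphocytes, in 2. Egr2, Egr3 and Klf4 were listed at 0 in every cell, so the 3 Egr genes with a row had no cell at 1 TPM. Egr4, Nr4a3 and the AP-1 partner Batf2 were not analysed here.

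Of the 4 listed genes with an Ier name, Ier2 was on in the most cells. Ier3, a survival gene, was on in 41 cells (39 at 10 TPM; median 22.9 TPM, highest 636 TPM), Ier5 in 21 (20 at 10 TPM; highest 218 TPM) and Ier5l in 1 (44 TPM). On this length-scaled measure the median of Ier2 was 241 TPM.

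Feedback inhibitors were on in part. At 1 TPM, 24% of them were on in at least 50% of cells, against 23.1% of all genes. Of 25 genes, 6 were on in at least 50% of cells, and the 4 found in most cells were Zfp36l2, an RNA decay factor (72 cells; median 42.3 TPM), Nfkbia, the inhibitor of NF-kappaB (62 cells; 91.8 TPM), Btg1, an anti-proliferative gene (56 cells; 25.4 TPM), and Dusp5, a nuclear MAP kinase phosphatase (47 cells; 30.03 TPM), which shared its count with Dusp2 (47 TPM). In contrast Dusp6, a cytoplasmic MAP kinase phosphatase, was on in 1 cell and Dusp4 in 0. Among the 11 other immediate early products, 4 were on in at least 50% of cells, namely the kinase gene Pim1 (60 cells; 14.2 TPM), Tsc22d1 (56; 162 TPM), Id1, an inhibitor of E proteins (55; 161 TPM), and Plaur, the urokinase receptor (53; 104 TPM). That share of the 11 products was 36.4% at 1 TPM, against 23.1% of all genes. Cyr61, Ctgf and Plk2 were listed at 0 in every cell.

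Of 26 kinases and factors that act upstream, 10 were on in at least 50% of cells at 1 TPM (38.5%, against 23.1% of all genes). Rps6ka1, which encodes a ribosomal S6 kinase, was on in 60 cells (median 110.1 TPM), Nras in 59 (39.2 TPM), Map2k2 (MEK2) in 59 (89.3 TPM) and Araf in 57 (146 TPM). The ELK partners of serum response factor and Creb1 were picked after their values were seen. Elk3 was on in 48 cells, Elk4 in 15 and Elk1 in 1, and Creb1 in 18.

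Some Ier family proteins are known to bind the phosphatase PP2A and to act through it on the heat shock factor Hsf1. Of 8 listed genes of that group, 5 were on in at least 50% of cells at 1 TPM (62.5%, against 23.1% of all genes). The scaffold subunit Ppp2r1a was on in 59 cells (median 115 TPM), the catalytic subunit Ppp2ca in 52 (113 TPM), the B55 subunit Ppp2r2a in 52 (48 TPM) and the second scaffold gene Ppp2r1b in 49 (60.6 TPM). Hsf1 was on in 48 cells (45.7 TPM).

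Heat shock genes can also be induced by handling of cells, and of 11 genes 7 were on in at least 50% of cells at 1 TPM (63.6%, against 23.1% of all genes). The chaperone genes Hspa8 (median 1373 TPM), Hsp90aa1 (549 TPM) and Hsp90ab1 (879 TPM) were on in all 76 cells, and the mitochondrial chaperonin genes Hspe1 (432 TPM) and Hspd1 (257 TPM) in 75 each. The remaining members differed among themselves. Dnaja1 was on in 72 cells (71 at 10 TPM; median 74 TPM). Dnajb1 was on in 70 cells (69 at 10 TPM; median 166 TPM) and Hsph1 in 24 (23 at 10 TPM). Hspa1a and Hspa1b, near-identical genes between which reads can be exchanged, were on in 4 cells each and at 10 TPM in 1 each. Hspb1 was on in 0 cells. The summed level of the 11 genes ran from 1584 to 7984 TPM. Whether handling took part in the levels of Ier2 was not tested.

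The genes most like Ier2 over cells were taken by rho among 5808 other genes on in at least 20 cells. The highest were Actr5, a subunit of the INO80 chromatin remodeller (0.42), Jund (0.39), Rtn3, an endoplasmic reticulum gene (0.39), Twf2, an actin regulator (0.38), Brd3, a reader of acetylated histones (0.38), Nucb1 (0.38), Ankrd13a (0.37), Rnf146, a ubiquitin ligase (0.37), Wdr73 (0.37) and Tmem203 (0.35). Junb came at rank 11. Actr5 was on in only 21 of the 76 cells and had a median of 0 TPM. Its rho with Ier2 was 0.57 within the 21 cells with Actr5 at 10 TPM or more and 0.14 within the 55 others. The lowest were Cox8a, a subunit of cytochrome oxidase (-0.41), Tcf7l2, a Wnt effector (-0.35), Zfp266 (-0.35), Pdap1 (-0.35) and Ube2e1 (-0.35).

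These likenesses were small and most moved with the cells used. Of the first 10 genes, 1 was again among the first 10 within title numbers 2 to 6 and 3 within numbers 7 to 11. Jund had a rho of 0.61 in the first set and 0.12 in the second. The values of Junb, 0.29 and 0.37, differed less. Junb lies 312 kb from Ier2 on chromosome 8, and Jund is on the same chromosome at a distance of 13961 kb.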

How the data were processed

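Each of 76 sorted single cells was amplified (Discover-sc WTA Kit V2) and made into a library (TruePrep kit), per the labels' protocols. The authors deposited TPM values, 15192 genes by 76 cells, each column summing to 1000000. The build mm10, StringTie 1.3.4, HISAT2 2.1.0, bcl2fastq and SAMtools 0.1.19 are named, without role or order, per the submitters' processing notes. Which annotation, strand setting and filter on genes applied is not given in the sources used here.

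The members and lists were chosen with earlier results of these data known. Shares of cells have exact Clopper-Pearson 95% intervals. Likeness is Spearman's rho, with no p. Named genes were the 7 genes, all listed members of the AP-1, factor and Ier lists, the 4 most widely found of other lists, the 10 highest and 5 lowest by rho with Ier2 or Fos, and 5 neighbours on each side. Outside this rule, Elk1, Elk3, Elk4, Creb1, Hsf1, Dusp4, Dusp6, Cyr61, Ctgf and Plk2 were named after their values were seen. So were Dnaja1, Dnajb1, Hsph1, Hspa1a, Hspa1b and Hspb1 of the heat shock list. Rows for 5 list genes carried an older symbol. Positions are from GENCODE M21 (GRCm38) and promoters from RefSeq. Python 3.11.15, pandas 2.3.3 and scipy 1.17.1 were used, and the likeness procedure was tested on simulated data. Alternatives were other thresholds, subsets of cells, rescaling without 83 ribosomal-protein genes, Pearson correlation and pseudocounts.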

Additional observations from a re-analysis of the deposited data

How the results depend on the processing

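The shares of Ier2 at 1 TPM (93.4 to 98.7%) and at 10 TPM (92.3 to 95.1%) stayed inside their intervals under all settings tried. Its median ran from 183 TPM in title numbers 2 to 6 to 312 TPM in numbers 7 to 11. Both lie inside the interquartile range, a limit that medians of subsets of the same cells can hardly leave. The list genes on in at least 50% of cells numbered 16 to 28, against 19 in the main setting, within the 1.5-fold limit set. Fos changed more with the threshold. Its share was 76.3% at any value above 0 and 3.95% at 5 TPM, against 42.1% at 1 TPM. Its share at 10 TPM was 0% in title numbers 2 to 6 and in numbers 2 to 9 (the latter added after seeing the data), since it rests on 1 cell. Ier2 without Fos was found in 22.4% of cells at any value above 0, 89.5% at 5 TPM and 92.1% at 10 TPM (added). The rho of Ier2 with Actr5 was 0.29 in title numbers 2 to 6. For Junb and the 15 genes most and least like Ier2, 31 of 160 values of rho moved by more than 0.1, and none changed sign. The other values of rho were not taken through all of these settings. For the genes ranked with Fos and for pairs of the 7 genes, Pearson correlation was also computed. For Fos it was 0.18 with Ube2n, against a rho of 0.40, and 0.34 with Cfl1, against a rho of 0.34. The values of Rtn3, Twf2, Cox8a and Junb did not move by more in any of the 10 settings. Of these settings, that with genes on in at least 5 cells changed only which genes were ranked, so its rho could not move. No pairing between groups was possible because all cells form 1 group. Depth is unknown, so a value of 0 is no measure of absence.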

Other observations

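The genes next to Ier2 and Fos showed no common level. Among the 5 genes with a row on each side of Ier2, Lyl1, a blood transcription factor gene 38.6 kb away, was on at 1 TPM in 67 cells (median 83.3 TPM) and had a rho of 0.18 with Ier2. Nacc1, the nearest at 7.63 kb, was on in 13 cells, Cacna1a in 15, Trmt1, a tRNA methyltransferase gene, in 35, Nfix in 44 and Dand5 in 5. Farther off, D8Ertd738e was on in all 76 cells, Mri1 in 50, Ccdc130 in 14 and Zswim4 in 12. Around Fos, Tmed10, a vesicle transport gene, was on in 74 cells (median 188 TPM), Acyp1 in 64 and Batf, 209 kb away, in 44, with a rho of -0.21 between Batf and Fos. Jdp2 was on in 8, Nek9 in 14, Mlh3 in 3, Zc2hc1c, Ttll5 and Ift43 in 1 each and Tgfb3 in 0.

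The genes most like Fos were Ube2n (rho 0.40), 0610010K14Rik (0.37), Cfl1, an actin-severing protein gene (0.34), Narf (0.34), Pde12 (0.33), Kdelr1 (0.33), Plrg1 (0.33), Pde6d (0.33), Mgea5 (0.32) and Cyb5b (0.31). Those least like it were Taf1d (-0.37), Larp4b (-0.37), Ppox (-0.36), Bphl (-0.36) and Cd63 (-0.35). Since 57 of the 58 values of Fos above 0 were under 10 TPM, these ranks order mostly trace values.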
